A study of Mus musculus with 4 samples.

Results

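The genes described here are 9 chemokines and chemokine receptors that draw T cells into tissue: the ligands Cxcl9, Cxcl10 and Cxcl11 with their receptor Cxcr3, the ligand Cxcl16 with its receptor Cxcr6, and the CC chemokines Ccl3, Ccl4 and Ccl5. Every probe whose accession the RefSeq listing used assigns to one of these genes was taken. This gave 10 probes for 8 of the 9 genes, out of 56605 probes on the array. Cxcl11, listed by RefSeq as a transcribed pseudogene in the C57BL/6J reference, matched no probe by the accession in that listing and is not analysed here. The array does hold Cxcl11 probes, but they carry an accession absent from that listing, so they stayed unnamed and were not used. All 10 probes were well above background on all 4 arrays, so no member entered through the genotype in which it was higher.

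Chemokines are small secreted proteins that guide leukocytes along concentration gradients through receptors coupled to G proteins. CXCL9 and CXCL10 are induced by interferon gamma, mostly in macrophages, dendritic cells and stromal cells, and attract activated T cells and NK cells that carry CXCR3. CXCL16 is made as a membrane protein, shed by ADAM10, and binds CXCR6 on effector, resident and NKT cells. CCL3, CCL4 and CCL5 act on monocytes, macrophages, effector T cells and NK cells; they are made by activated macrophages, neutrophils, T cells and NK cells.

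RNA came from lung tumours of KP mice on the C57BL/6J strain, a lung adenocarcinoma model that depends on Cre recombinase; the labels give KP without spelling out its alleles. Cre was given to every animal by adenovirus into the trachea 88 to 92 days before RNA was taken, which marks no single cell type. One genotype was CD109+/+ (2 samples, both female), the other CD109-/- (2 samples, replicate 1 male and replicate 2 female), and the ages of the mice are not given in the sources used here. Whole tumour tissue was used, so the signal of a gene cannot separate more cells of a type from more RNA per cell. By sex the CD109-/- samples came from different animals, and by genotype these were not the CD109+/+ animals. Nothing states that the 2 CD109+/+ samples came from separate animals, so p-values measure only the spread between these samples.

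Each array's 75th percentile of signal lay between 553.3 and 683, and 64.3% to 67.0% of its spots were well above background, with 0 saturated spots. Cd109 itself, read by 1 probe, had log2 signals of -3.69 and -4.65 in CD109+/+ tumours and was not well above background on either CD109-/- array (-7.97 and -7.86), at least 2.92-fold lower. Whether the deleted part of Cd109 lies under this probe was not examined. Epithelial identity of the tissue was plain: the surfactant gene Sftpc had log2 signals of 9.12 and 8.97 in CD109+/+ and 8.93 and 8.80 in CD109-/- tumours, and the keratin gene Krt18 of 8.40 and 7.49 against 7.71 and 7.26. Pairs of values are always given with replicate 1 first. They are log2 signals relative to the array's 75th percentile, and are not comparable between probes. Differences are CD109-/- minus CD109+/+ with limma's standard error (SE, n = 2 per genotype).

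The 2 interferon-induced ligands that were measured lie close together on chromosome 5, and the sequence before each start is shown. RefSeq windows (GRCm38.p6) were at hand for 5 of the 9 members, Cxcl9, Cxcl10, Cxcr3, Cxcr6 and Ccl3; Cxcl11, Cxcl16, Ccl4 and Ccl5 had no entry. The 250 bases before the start of Cxcl10 (chr5:92348890-92349139, minus strand) and of Cxcl9 (chr5:92328080-92328329, minus strand) read as follows, 5′ to 3′, with capitals marking matches to an interferon-stimulated response element and to kappaB.
Cxcl10: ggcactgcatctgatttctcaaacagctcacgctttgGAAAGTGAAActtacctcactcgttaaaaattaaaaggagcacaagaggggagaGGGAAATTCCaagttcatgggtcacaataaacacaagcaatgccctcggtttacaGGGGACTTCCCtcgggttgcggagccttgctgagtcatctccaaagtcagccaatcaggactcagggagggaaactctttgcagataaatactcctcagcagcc
Cxcl9: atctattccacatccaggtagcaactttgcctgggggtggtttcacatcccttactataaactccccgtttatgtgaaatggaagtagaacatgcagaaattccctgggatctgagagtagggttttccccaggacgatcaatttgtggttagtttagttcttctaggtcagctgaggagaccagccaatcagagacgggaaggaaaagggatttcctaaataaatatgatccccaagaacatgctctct
The interferon-stimulated response element was searched as GAAANNGAAA on both strands, and its 1 match in Cxcl10, GAAAGTGAAA, lies 213 to 204 bases before the start. Of 32851 windows of this length, 2.98% held such a match. The kappaB motif, bound by NF-kappaB, matched 3 times in Cxcl10, at GGGAAATTCC (159 to 150 bases before the start) and at the overlapping GGGGACTTCC and GGGACTTCCC (104 to 94 bases), and 7.25% of windows held at least 1 match. Neither motif had a match in the windows of Cxcl9, Cxcr3, Cxcr6 or Ccl3. A further motif searched on both strands, TTCNNNGAA, had no match in any of the 5 windows and was present in 7.02% of all windows. A match, or the lack of one, is a description of these letters only. Response elements of another form were not searched, and no link between these sequences and the array values was tested.

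The comparison asked whether loss of CD109 went with a different level of these signals in the tumours. Each of the 8 measured genes had a higher mean in CD109-/- tumours, by 0.48 to 1.72 on the log2 scale with a median of 1.14, and none passed the test. Over all 16443 genes tested, 50.4% had a higher mean and the median difference was 0.00. After Benjamini-Hochberg adjustment limma called 0 member probes, as it called 0 of 35769 probes in all (0%), and the lowest adjusted p among the members was 0.55. At an unadjusted p under 0.05, 5 of the 8 genes were higher, against 5.07% of all genes, and 7 of the 10 probes, against 3.89% of all probes. The genotypes did not overlap in 6 of the 8 genes, all higher in CD109-/-, against 20.3% of all genes higher without overlap, and in 8 of the 10 probes, against 16.5% of all probes. For 1 probe with 2 samples per genotype, the smallest p an exact permutation test (two-sided) allows is 0.333. Without CD109-/- replicate 1, the only male, the median difference was 0.75, 7 of 8 genes were higher and 2 had an unadjusted p under 0.05, Cxcr3 and Cxcr6. That last count was 2 also without CD109+/+ replicate 1 (Cxcl9 and Cxcr6) and 3 without CD109+/+ replicate 2 (Cxcl10, Cxcr3 and Cxcr6).

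**Figure D1:**
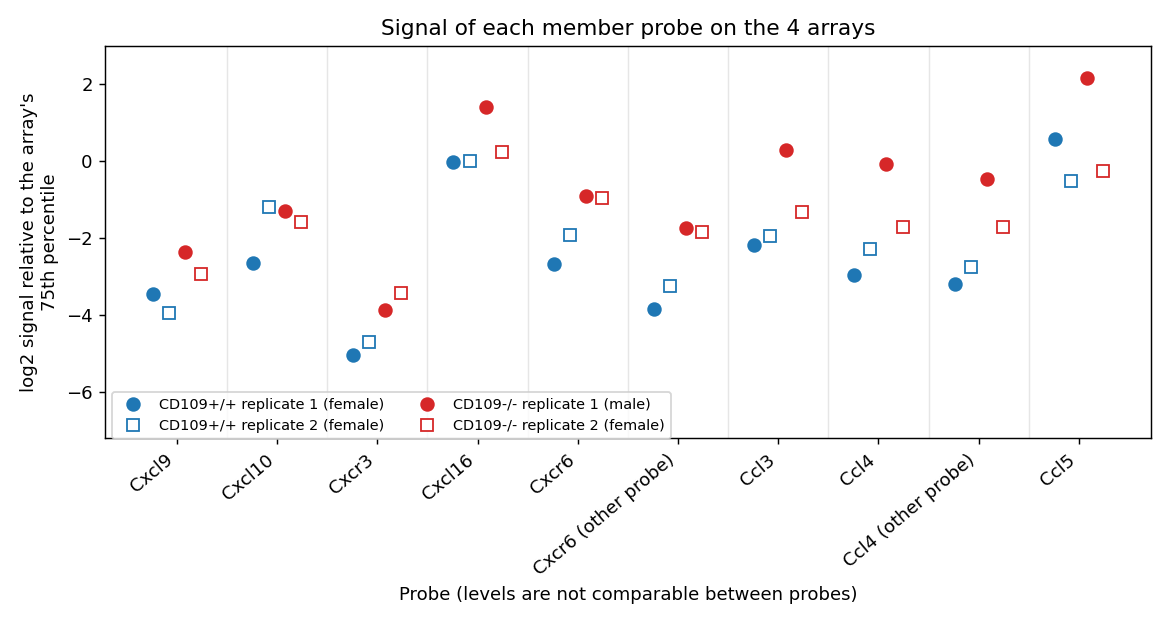
Log2 signal relative to the array's 75th percentile (vertical axis) of the 10 member probes (horizontal axis) on each of the 4 arrays; blue marks are CD109+/+, red marks CD109-/-, filled circles replicate 1 and open squares replicate 2. For Cxcr3 and both Cxcr6 probes the red marks lie close together above the blue ones, whereas for Ccl3, both Ccl4 probes, Ccl5 and Cxcl16 the filled red circle, CD109-/- replicate 1, is the highest mark, 1.16 to 2.41 above CD109-/- replicate 2.

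Among the ligands of CXCR3, Cxcl9 had log2 signals of -3.45 and -3.94 in CD109+/+ and -2.37 and -2.93 in CD109-/- tumours. Both CD109-/- arrays were above both CD109+/+ arrays. The difference was 1.05 ± 0.33, a 2.07-fold higher signal, with an interval of 0.21 to 1.88 (95%, limma; unadjusted p = 0.0233, adjusted p = 0.645), and 0.60 with normexp background correction, which adds an offset to every spot. Cxcl10, the other interferon-induced ligand, had values of -2.66 and -1.19 against -1.30 and -1.59. Here CD109+/+ replicate 1 was low and the other 3 arrays lay together, with CD109+/+ replicate 2 the highest of all, so the genotypes overlapped. The Cxcl10 difference of 0.48 ± 0.52 (interval -0.86 to 1.82, limma's adjusted p = 0.886) was smaller than the gap of 1.47 between the CD109+/+ arrays, and without CD109+/+ replicate 1 it was -0.26 and with normexp 0.20. Whether Cxcl9 and Cxcl10 responded unlike each other was not tested.

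CXCR3, the receptor on activated T and NK cells that both ligands engage, is encoded on the X chromosome. Cxcr3 signals were -5.05 and -4.71 in CD109+/+ and -3.87 and -3.43 in CD109-/- tumours, and the genotypes did not overlap. The difference was 1.23 ± 0.28, or 2.35-fold (interval 0.50 to 1.96, unadjusted p = 0.00734, limma's adjusted p = 0.587). The female CD109-/- array was the higher of the pair, and without the male array the difference was 1.45. Cxcr3 was dim: the weakest probes well above background on these arrays lay at -5.61, -5.87, -5.80 and -5.64. With normexp the Cxcr3 difference was 0.30.

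CXCL16 serves as both a scavenger receptor and, once shed, a chemoattractant. Cxcl16 gave -0.02 and 0.01 in CD109+/+ and 1.40 and 0.24 in CD109-/- tumours. The CD109+/+ arrays differed by only 0.03, CD109-/- replicate 1 stood 1.40 above their mean, and CD109-/- replicate 2 stood 0.24 above it. The difference of 0.82 ± 0.43 (interval -0.28 to 1.92, limma's adjusted p = 0.776) therefore rested mainly on 1 array.

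CXCR6 marks effector and resident memory T cells and NKT cells. Its brighter probe, which stands for the gene, had -2.67 and -1.91 in CD109+/+ and -0.91 and -0.95 in CD109-/- tumours. The CD109-/- arrays were within 0.04 of each other and both above the CD109+/+ arrays. This probe gave a difference of 1.36 ± 0.33, or 2.56-fold (interval 0.52 to 2.20, unadjusted p = 0.00891, limma's adjusted p = 0.603). The other Cxcr6 probe read -3.83 and -3.24 against -1.74 and -1.83, a difference of 1.75 ± 0.29, or 3.37-fold (unadjusted p = 0.00186, limma's adjusted p = 0.55), and 0.99 with normexp. Both probes kept a difference of 0.93 or more with each array left out and with normexp.

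The CC chemokines Ccl3, Ccl4 and Ccl5, all encoded on chromosome 11, had their highest values on CD109-/- replicate 1. Ccl3, an inflammatory chemokine of macrophages and lymphocytes, had -2.17 and -1.94 in CD109+/+ and 0.29 and -1.32 in CD109-/- tumours. On CD109-/- replicate 1 Ccl3 was 5.09-fold above the CD109+/+ mean and on replicate 2 it was 1.66-fold above it. The difference of means was 1.54 ± 0.56 (interval 0.10 to 2.98, unadjusted p = 0.0402, limma's adjusted p = 0.704).

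Ccl4, whose product attracts effector T cells and monocytes, followed the same order. Its brighter probe had -2.95 and -2.28 against -0.08 and -1.71, which put CD109-/- replicate 1 5.78-fold and replicate 2 1.87-fold above the CD109+/+ mean. The difference was 1.72 ± 0.60, or 3.29-fold (interval 0.18 to 3.25, unadjusted p = 0.0348, limma's adjusted p = 0.691). A further Ccl4 probe had -3.20 and -2.75 against -0.46 and -1.72 and gave 1.89 ± 0.48 (unadjusted p = 0.0107, limma's adjusted p = 0.612), and 1.26 with normexp. Ccl3 and Ccl4 are related in sequence, and cross-hybridisation between their probes was not tested.

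Ccl5, whose product is released by activated T and NK cells, had 0.58 and -0.52 in CD109+/+ and 2.16 and -0.25 in CD109-/- tumours. Its CD109-/- arrays lay 2.41 apart, on either side of CD109+/+ replicate 1, so the genotypes overlapped. The Ccl5 difference was 0.93 ± 0.86 (interval -1.29 to 3.14, limma's adjusted p = 0.861), and it was -0.28 without CD109-/- replicate 1.

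The gap between the CD109-/- arrays varied among the members and was not tested. It was 1.16 to 2.41 for Cxcl16, Ccl3, Ccl5 and the probes of Ccl4, and 0.04 to 0.57 for Cxcl9, Cxcl10, Cxcr3 and the probes of Cxcr6. Over the 6 ligand genes the median step above the CD109+/+ mean was 1.77 on CD109-/- replicate 1 and 0.54 on replicate 2, and on replicate 2 4 of the 6 were above both CD109+/+ arrays. Over the 2 receptor genes the steps were 1.20 and 1.40. Sex differed between the CD109-/- arrays, and its part in the step between them cannot be told apart from other differences between these samples.

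**Figure D2:**
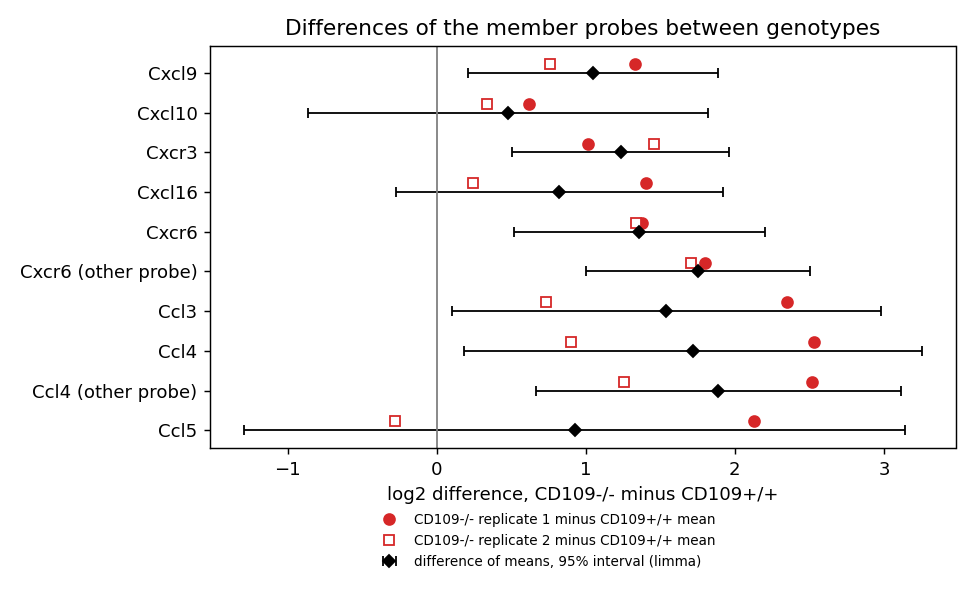
Log2 difference of CD109-/- minus CD109+/+ (horizontal axis) for each member probe (vertical axis); black diamonds are the differences of means with limma's 95% interval, and red marks show each CD109-/- array minus the CD109+/+ mean. The intervals of Cxcl10, Cxcl16 and Ccl5 include 0, and the red marks are 2.41 apart for Ccl5 but 0.04 apart for the brighter Cxcr6 probe.

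The members' neighbours in pattern were sought among 14316 other named genes well above background on all arrays, by the root mean square distance of values centred on each gene's mean over the 4 arrays. For Cxcr6 the nearest were Il2rb (distance 0.0456), a receptor chain for IL-2 and IL-15 on T and NK cells, and Dock10 (0.0676). Nearest to Cxcr3 were Batf (0.0458), a transcription factor of lymphocytes, and Vmn1r61 (0.0565), a vomeronasal receptor gene. Ccl3 had Egfr (0.0938), the epidermal growth factor receptor gene, and Nkg7 (0.111), a cytotoxic granule gene, and Ccl4 had Stac (0.164) and again Nkg7 (0.209). Cxcl16 lay nearest to Cuedc1 (0.044) and to Runx3 (0.0666), a transcription factor of cytotoxic lymphocytes. Cxcl9 lay nearest to Gpr132 (0.0441) and Glipr2 (0.0452), Cxcl10 to Cpq (0.0738) and Pcdhb16 (0.0765), and Ccl5 to Gpr84 (0.0458), a receptor gene of activated myeloid cells, and Dhh (0.0912). With 4 arrays such likeness is a description only.

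Other genes, listed as receiving, binding or processing these chemokines, were read from lists chosen with earlier results of these data known. Whether each of them acts on these chemokines was not tested, and none passed the adjusted threshold. Of 6 receptor and decoy receptor genes, 4 were tested, all 4 with higher means in CD109-/- and 3 at an unadjusted p under 0.05 (median 1.13). For this list and the processing list, the shares over all genes were 50.4% with a higher mean and 5.07% higher at that p by limma. Ackr1, a decoy receptor of venules and red cells, differed by 1.34 ± 0.52 and Ccrl2, which presents chemerin, by 1.14 ± 0.42. Ccr1 was well above background on only 1 array, CD109-/- replicate 1, and was not tested, nor was Ccr3. The 6 genes of chemokine processing had a median of 0.81, with 5 higher means and 1 at an unadjusted p under 0.05. The sheddase gene Adam10 differed by 0.31 ± 0.29, the neutrophil collagenase gene Mmp8 by 1.39 ± 0.30, and Cst7, a cystatin of cytotoxic and myeloid cells, by 1.30 ± 1.03 with CD109-/- replicate 1 alone high (-2.15 against -4.66 to -5.36 on the others).

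Interferon gamma is an inducer of Cxcl9 and Cxcl10. Ifng itself was not well above background on either CD109+/+ array (-7.56 and -7.54) and was so on both CD109-/- arrays (-4.73 and -5.35), at least 1.63-fold higher. The Ifng probe was tested only because it is high in CD109-/-, so its limma adjusted p = 0.379 rests on CD109+/+ values at background and supports nothing beyond the bound. Of the 9 genes of interferon gamma and its signalling, all had higher means in CD109-/- (median 0.49). Without overlap of the genotypes were 7, Ifng among them. The single gene at an unadjusted p under 0.05 was Ifng, and 0 of the other 8 were. The kinase genes Jak1 and Jak2 differed by 0.68 ± 0.27 and 0.74 ± 0.35. Among 17 measured genes of the interferon gamma response, 16 had higher means (median 0.62), 12 without overlap and 3 at an unadjusted p under 0.05. The 16 and the 12 include Ido1, which was tested only because it is high in CD109-/-. Over all genes 50.4% had a higher mean. Higher without overlap were 20.3%, and higher at an unadjusted p under 0.05 by limma were 5.07%.

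**Figure D3:**
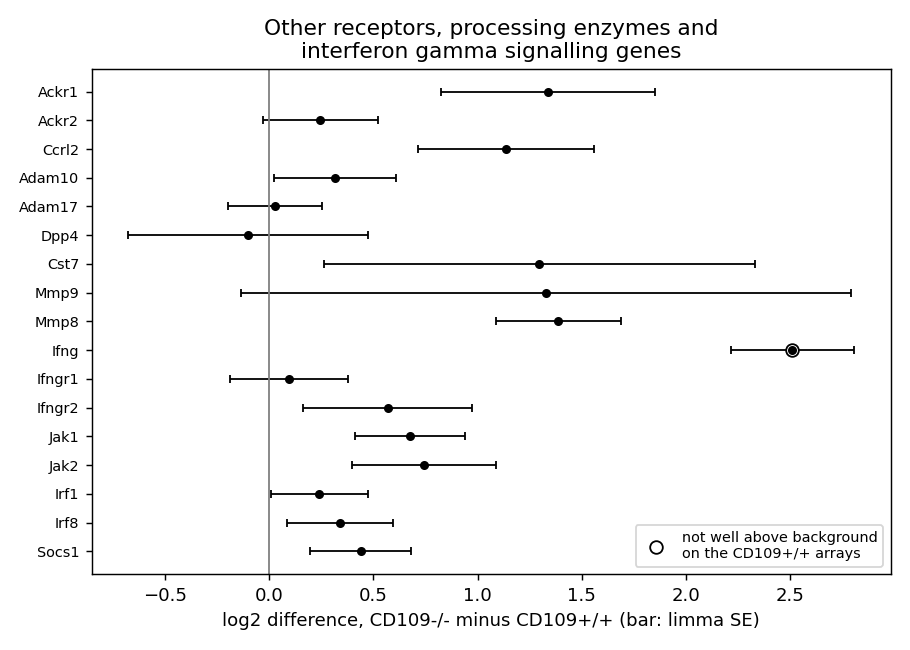
Log2 difference of CD109-/- minus CD109+/+ (horizontal axis) with limma's SE for 17 tested receptor, processing and interferon gamma signalling genes (vertical axis); the ring marks Ifng, which was not well above background in CD109+/+ and for which only a bound of 1.63-fold can be given. Of the 17 genes drawn, Dpp4 alone lies below 0.

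Markers of the cells that make or follow these chemokines also differed between the arrays, and their part in the members' values was not tested. Of 15 tested T cell markers, 14 had higher means in CD109-/- (median 0.70), 9 without overlap and 6 at an unadjusted p under 0.05. The shares over all genes, for this and the next lists, were 20.3% without overlap and 5.07% at that p by limma. The T cell markers' summed signal, in units of the 75th percentile, was 11.0 and 8.81 in CD109+/+ and 11.8 and 13.2 in CD109-/- tumours. These sums were led by Cd247. Cd2, singled out after the values were seen, was -1.50 and -1.38 in CD109+/+ and -0.80 and 1.24 in CD109-/- tumours. By rule the 3 brightest T cell markers are named: Cd247 differed by 0.10 ± 0.28, Cd4 by -0.12 ± 0.23 and Cd3e by 0.30 ± 0.25. Cd27 was not well above background on any array, and a Cd8a probe was so only on CD109-/- replicate 1. Relative to the mean of the 15 T cell markers, a comparison made after the values were seen, Cxcr3 was -3.01 and -2.69 in CD109+/+ and -2.51 and -2.21 in CD109-/- tumours. The same subtraction gave -0.63 and 0.12 against 0.45 and 0.26 for Cxcr6. Receptor signal thus exceeded the markers' own shift of 0.75 by 0.49 for Cxcr3 and 0.61 for Cxcr6, with no test.

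Of 12 NK and cytotoxic markers 6 were tested, 5 with higher means (median 0.93), all 5 without overlap and 3 at an unadjusted p under 0.05. The other, Prf1, was lower without overlap. The summed signal of the tested NK and cytotoxic markers was 1.41 and 1.09 in CD109+/+ and 2.01 and 1.33 in CD109-/- tumours. Prf1 led these sums except on CD109-/- replicate 1, where Gzma did. The granule genes Gzma and Nkg7 differed by 1.28 ± 0.45 and 1.49 ± 0.48, each with CD109-/- replicate 1 the highest array as for Ccl3, Ccl4 and Ccl5, while Prf1, the perforin gene, differed by -0.33 ± 0.27. Of the NK receptor genes, chosen here after their values were seen, Klrd1 differed by 1.57 ± 0.31 (unadjusted p = 0.00361 with limma) and Klrk1 by 0.58 ± 0.24, whereas Ncr1, Klrb1c and Klre1 were not well above background on any array. Macrophage markers had higher means in 13 of 14 genes (median 0.54) with summed signals of 246.6 and 176.5 against 233.7 and 272, sums led by Chil3, which differed by 0.36 ± 0.35. The macrophage receptor gene Csf1r differed by 0.49 ± 0.23 and the integrin gene Itgam by -0.50 ± 0.25.

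Among 9 tested dendritic cell markers 7 had higher means (median 0.65), Flt3 and Cd209a among them, which were tested only because they are high in CD109-/-. Their summed signals of 121.9 and 117.7 against 95.1 and 88.9 were led by 1 Siglech probe, which differed by -0.40 ± 0.23. The further Siglech probe was not well above background on any array, so the lower sum rests on a single probe. Ccr7 differed by 0.95 ± 0.25 and Batf3 by 0.28 ± 0.31. Neutrophil markers had higher means in 5 of 6 genes (median 0.92; summed signals 91.8 and 85.7 against 93.1 and 98.1), with S100a9 at 1.28 ± 0.49, S100a8 at 1.08 ± 0.52 and Csf3r at -0.17 ± 0.23. Fibroblast markers had higher means in 7 of 7 (median 0.79; 32.8 and 29.6 against 51.2 and 44.1), with Col3a1 at 1.27 ± 0.23, Col1a2 at 0.79 ± 0.33 and Dcn at 0.40 ± 0.34. B cell markers had lower means in 4 of 5 (median -0.17; 1.50 and 2.94 against 1.48 and 2.80), with Cd79b at -0.03 ± 0.52 and Pax5 at -0.56 ± 0.24. Epithelial markers had lower means in 6 of 10 (median -0.21; 1431 and 1094 against 1192 and 959.8), with Sftpc at -0.18 ± 0.23 and Sftpb at -0.33 ± 0.30. Endothelial markers had higher means in 5 of 5 (median 0.24; 13.6 and 10.3 against 11.6 and 13.9), with Vwf at 0.02 ± 0.30, Kdr at 0.24 ± 0.32 and Cdh5 at 0.22 ± 0.27.

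**Figure D4:**
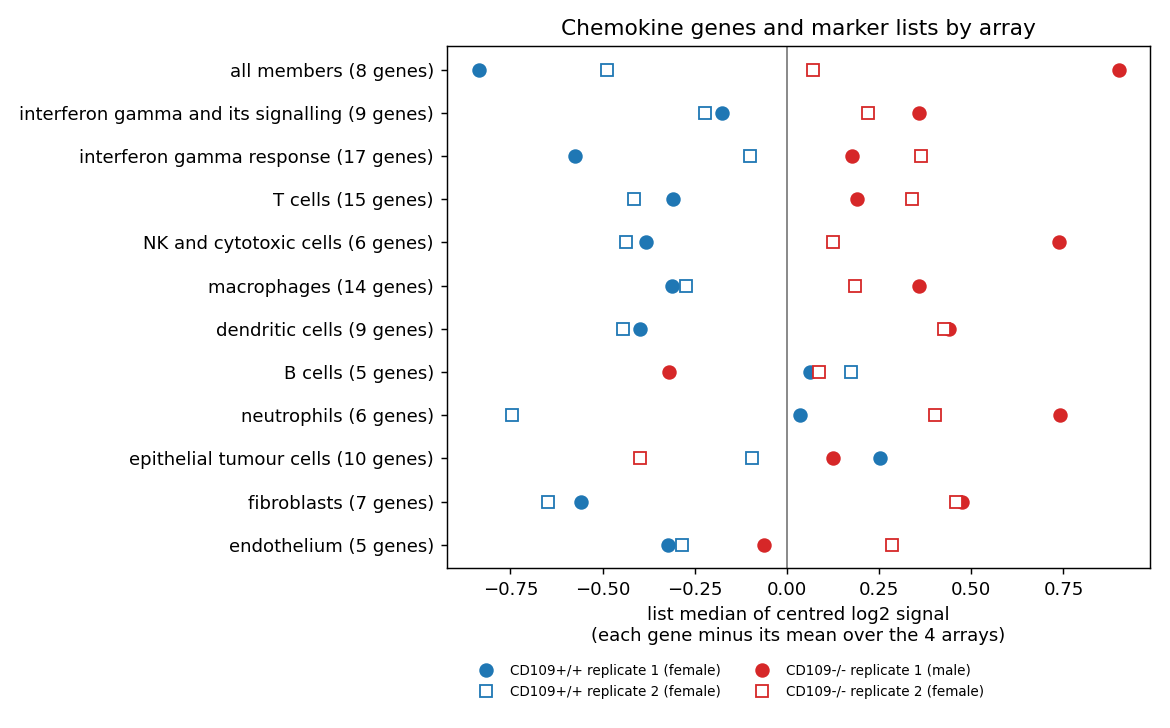
Median over each gene list of log2 signal centred on the gene's mean over the 4 arrays (horizontal axis), for the 8 measured chemokine and receptor genes and for marker lists (vertical axis, with the number of genes tested); blue is CD109+/+, red CD109-/-, filled circles replicate 1 and open squares replicate 2. The chemokine genes stood at -0.84 and -0.49 in CD109+/+ and 0.90 and 0.07 in CD109-/- tumours. The NK and cytotoxic list, at -0.38 and -0.44 against 0.74 and 0.13, had the same order of the CD109-/- arrays. So had the macrophage, neutrophil, epithelial and interferon gamma signalling lists. For dendritic cells and fibroblasts the CD109-/- arrays nearly coincided. The T cell, B cell, endothelial and interferon gamma response lists had the reverse order.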

How the data were processed

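Total RNA of 4 lung tumour samples (2 per CD109 genotype) (100 ng each) was Cy3-labelled for Agilent arrays of 1 colour, per the labels' protocols. The authors' scanner files, made with Agilent Feature Extraction 12.1.0.3 per the file headers, hold linear intensity values, of which the processed signal is background-subtracted within the array and not scaled between arrays. A value table deposited by the authors also holds intensity, equal to the processed signal times 1 constant per array (1.193, 1.209, 1.039 and 1.077, column medians 58.83, 76.14, 59.5 and 69.18); the rule of the constant is unknown, the values are not centred, and the table served as an alternative.

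Processed signals were put on the log2 scale and each array's 75th percentile (over its non-control spots) was subtracted. Outlier spots were left out and spots of 1 probe averaged. Testing required signal well above background on both arrays of either genotype and a value on all 4 (35769 of 56605; 11 lacked an array). Symbols came from RefSeq accessions (GRCm38.p6) for 34566 probes. A gene is given by its brightest tested probe. limma 3.58.1 in R 4.3.3 compared genotypes by probe, two-sided, with Benjamini-Hochberg adjustment over all probes tested, a threshold of 0.05 and no covariates. A fold given as "at least" sets the dim genotype, per array, at the higher of its own value and the lowest signal well above background. All arrays lay on 1 slide. The fit was tested on simulated data.

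Members and lists were chosen with earlier results of these data known. Named were the members, the 3 genes of each receptor, processing and interferon gamma signalling list with the largest moderated t (with Ifng and Ccr1 among fixed genes), the 3 brightest markers of each cell type and the 2 genes nearest to each member in pattern; a few of these are not reported here. Alternatives were normexp (offset 50, on median signals), quantile and median scaling, the deposited table, 2 other filters, a variance trend, a replicate block, sex, probe means and leaving out each array.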

Additional observations from a re-analysis of the deposited data

How the results depend on the processing

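Member genes past the adjusted threshold numbered 0 under each of the 14 alternatives, and the members' lowest adjusted p by limma ranged from 0.0966 (without CD109-/- replicate 2) to 1. Of the 8 genes 7 or 8 had a higher mean with each array left out, and their median difference ranged from 0.75 to 1.39 without 1 array. It was 0.82 with normexp and 0.75 with sex as a covariate, which gives the value without the male array since only 1 array is male. Counts of member genes higher at an unadjusted p under 0.05, a count added after the data were seen, ran from 2 to 7 with 1 array left out, and the count was 2 with sex as a covariate. Genes without overlap numbered 6 under each scaling alternative. With 1 array left out Cxcl10 ranged from -0.26 (without CD109+/+ replicate 1) to 1.21, and Ccl5 from -0.28 (without CD109-/- replicate 1) to 2.13; Ccl5 was also -0.28 with sex as a covariate. For both genes the cause was not tested. Over all probes, 2441 had an unadjusted p under 0.05, against 3939 with the replicate block, 1228 of 16443 genes with the mean of a gene's probes (fewer features tested), and 1041 to 4607 with 1 array left out. Same-numbered arrays deviated from their genotype means with a correlation of 0.347, and the labels do not say that a number pairs samples. With the replicate block the members' adjusted p stayed at 0.302 or more for the genes and the median difference at 1.14. Low signal over background limits the values of Cxcr3 and Ifng. When an array was dropped, the one remaining was assumed to vary like the other genotype's.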

Other observations

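Other chemokines and receptors of T and dendritic cells were read from lists chosen in the same way, and 0 passed limma's adjusted threshold. Of 8 tested ligands 6 had higher means in CD109-/- tumours. The median was 0.90, and 3 stood at an unadjusted p under 0.05, namely Cxcl12, Cxcl14 and Ccl19, the last tested only because it is high in CD109-/-. Over all genes, 50.4% had a higher mean and 5.07% were higher at that p by limma. The genes singled out here were chosen after their values were seen. Ccl19, a CCR7 ligand of lymphoid stroma, was not well above background on either CD109+/+ array (-7.85 and -6.50). It read -4.33 and -4.38 on the CD109-/- arrays, at least 2.62-fold higher. Cxcl12, the stromal ligand of CXCR4, had 0.62 and 0.96 in CD109+/+ and 1.54 and 2.00 in CD109-/- tumours, a difference of 0.98 ± 0.29, and its further probe gave 1.98 ± 0.36. Cxcl14 differed by 1.15 ± 0.32, whereas its further, dim probe gave 0.07 ± 0.27.

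Of 8 tested receptors 7 had higher means, with a median of 0.39 and 2 at an unadjusted p under 0.05. The shares over all genes were again 50.4% with a higher mean and 5.07% higher at that p by limma. Ccr6, the CCL20 receptor of memory T cells, B cells and dendritic cells, had -4.68 and -4.29 in CD109+/+ and -2.90 and -2.66 in CD109-/- tumours (1.71 ± 0.27, unadjusted p = 0.00137, limma's adjusted p = 0.55), while Ccl20 was not among the ligands with higher means. Ccr8, found on regulatory T cells in tumours, was the single receptor with a lower mean, at -3.23 and -3.30 against -3.79 and -3.78 (-0.52 ± 0.22, limma's adjusted p = 0.756).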
